A study of Mus musculus with 15 samples.

Results

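Plasma cells of the bone marrow were compared with 1 of 4 plasma cell fractions of the spleen, the fraction that still carried B220 and took up little of the fluorescent glucose analogue 2NBDG. The comparison used 6 of the 15 libraries of the study, 3 against 3, chosen by their labels and not by any measured value. The bone marrow plasma cells (BMPC) were sorted as CD138-high, Ly6g-, CD11c-, B220- and 2NBDG+. The spleen cells were sorted as CD138-high, Ly6g-, CD11c-, B220+ and 2NBDG- (B220+2NBDG-). All cells came from untreated male C57Bl6/N mice of 8 to 12 weeks that had received no immunization, and about 30000 cells per library were double-sorted and profiled by population RNA sequencing. The labels name no antigen and no cell lifespan for either group. The 2 groups differ at once in tissue, in B220 and in 2NBDG uptake, which cannot be told apart within this comparison. A second spleen fraction, B220-2NBDG+ (3 libraries), carries the sort phenotype of the BMPC and was used to split the difference into a step within the spleen (B220-2NBDG+ against B220+2NBDG-) and a step between tissues at matched phenotype (BMPC against B220-2NBDG+). Both steps share libraries with the full comparison and with each other, so their values are given side by side. The labels call the 3 libraries of a group biological replicates without naming the animals or pools behind them, and p-values measure the spread between these libraries.

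As background, plasma cells are the antibody-secreting end stage of the B lineage. A B cell that is activated first becomes a dividing plasmablast, which still carries B220 (an isoform of CD45, the product of Ptprc) and MHC class II, and then leaves the cell cycle, shuts down the B cell programme under the repressor Blimp-1 (Prdm1) and turns most of its messenger RNA over to immunoglobulin. Part of these cells travel to the bone marrow, where stromal cells and haematopoietic neighbours supply the CXCR4 ligand CXCL12 and the BCMA ligand APRIL, and where plasma cells can persist for long periods.

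Each library held an estimated 17271374 to 22360254 reads among the 6, of which 4399835 to 9912468 fell outside the immunoglobulin loci. Immunoglobulin genes were set aside and the rest rescaled to 1000000 per library, and TPM (transcripts per 1000000) below is on that scale. The BMPC libraries correlated with one another at r = 0.967 to 0.974 across genes, while replicate 3 of B220+2NBDG- stood apart from replicates 1 and 2 (r = 0.946 and 0.939, against 0.976 between those 2). Plasma cell genes were high in all 6 libraries. Xbp1, which drives the secretory programme, was at 341, 377 and 451 TPM in the BMPC and 319, 299 and 639 TPM in B220+2NBDG-, and Sdc1, which encodes the sort marker CD138, at 59.5, 96.4 and 125 TPM and 52.3, 36.1 and 96 TPM, so that the groups overlapped for both. Neither passed, but without B220+2NBDG- replicate 3 Xbp1 passed as a rise in the BMPC (log2 fold change 0.32, limma adjusted p = 0.0405). Ptprc, which gives every CD45 isoform and not B220 alone, was at 59.7, 93.5 and 116 TPM in the BMPC and 281, 301 and 114 TPM in B220+2NBDG- (log2 fold change -1.29, limma adjusted p = 0.008), and it did not pass with only the 2 groups in the fit (limma adjusted p = 0.0892).

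In the BMPC 562 of 11246 tested genes were higher and 2417 were lower than in B220+2NBDG-, which is 5.0% and 21.5% of the tested genes and 26.5% in all (limma, Benjamini-Hochberg adjusted p under 0.05). Groups that did not overlap were more frequent still, at 37.6% of the genes. This split depends on the scale. Jchain, which encodes the joining chain of polymeric IgM and IgA, took 10.2% of the TPM in the BMPC against 2.71% in B220+2NBDG-, and Slpi, a secreted protease inhibitor, 4.41% against 1.19%, and the median gene stood at a log2 fold change of -0.32. Median-of-ratios scaling moved the median to -0.02 and the calls to 1165 genes higher (10.4%) and 843 lower (7.52%) of 11206, or 17.9% in all. Changes are to be read against -0.32, and counts under both scalings are given for most gene lists. The list counts are to be read against 5.0% higher and 21.5% lower on the main scale. With median-of-ratios scaling they are to be read against 10.4% higher and 7.52% lower. The step within the spleen held 1750 calls, 552 higher (4.91%) and 1198 lower (10.7%), or 15.6% of the genes. The step between tissues held 216, of which 116 were higher (1.03%) and 100 lower (0.889%), or 1.92%. Counts also moved with single libraries. Without BMPC replicate 1, 1425 genes were lower in the full comparison, and leaving out single libraries gave 21 to 182 lower genes between tissues, the lowest without B220-2NBDG+ replicate 1 and the highest without BMPC replicate 3.

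**Figure D1:**
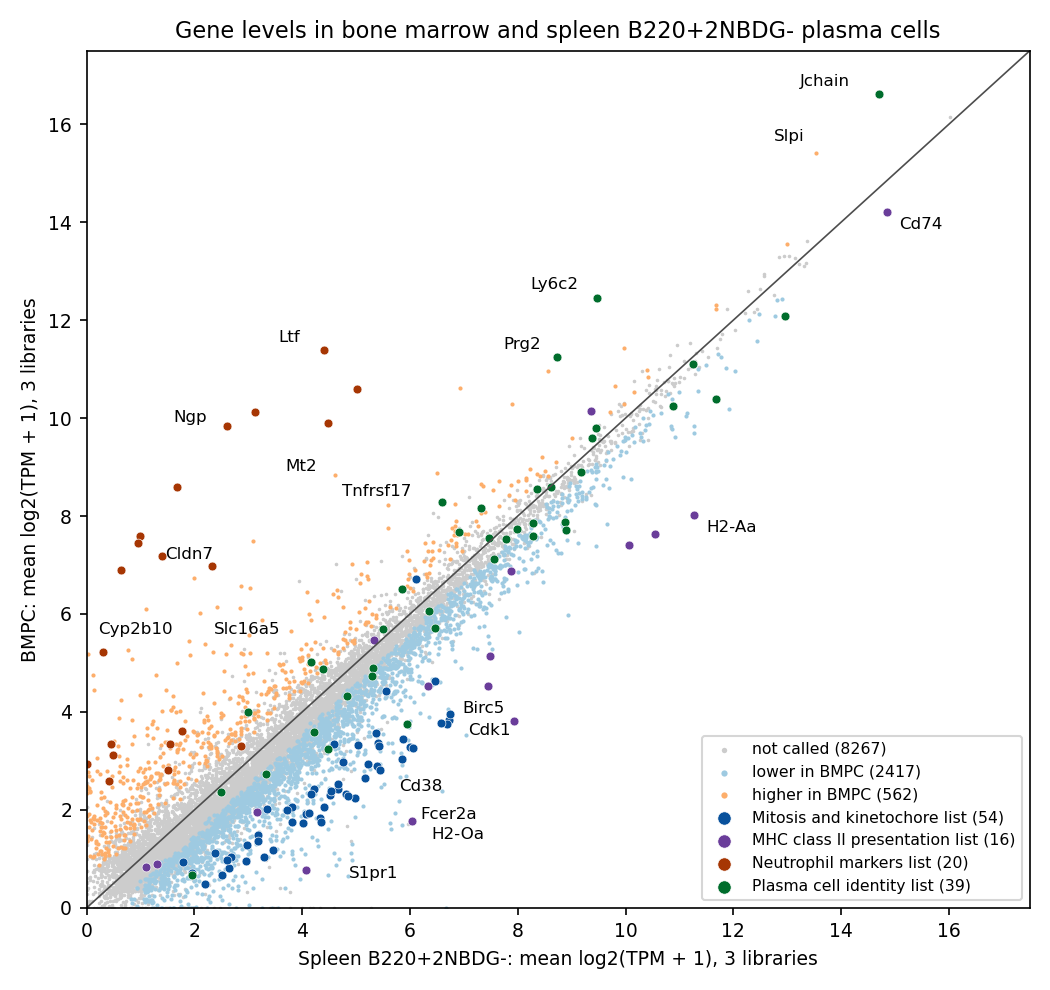
Mean log2(TPM + 1) of every tested gene in the 3 B220+2NBDG- libraries (horizontal axis) and the 3 BMPC libraries (vertical axis), with equal levels on the line. The 2417 genes called lower lie below the line with the mitosis and MHC class II lists far from it, and the neutrophil markers lie far above it.

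Cell cycle genes fell nearly as a whole. Of 54 tested mitosis and kinetochore genes, 52 fell in the BMPC, with a median log2 fold change of -2.12 against -0.32 over all tested genes. With median-of-ratios scaling 52 again fell and 1 rose, with a median of -1.78. Summed over the list, the mitosis genes stood at 416, 444 and 348 TPM in the BMPC and at 1619, 1778 and 1670 TPM in B220+2NBDG-. In a sorted population, fewer dividing cells and less of each transcript per cell cannot be told apart, here and for every gene below.

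Cdk1, the kinase that drives entry into mitosis, was at 13.6, 13.2 and 12.8 TPM in the BMPC and 106, 114 and 94.6 TPM in B220+2NBDG-. The groups were far apart and each was tight, a 7.94-fold difference of the means (log2 fold change -2.89, SE 0.30, limma adjusted p = 3e-05). Its partner cyclin B1 (Ccnb1) was at 16.2, 15.5 and 12.2 TPM against 105, 126 and 91.9 TPM and fell by the same order (log2 fold change -2.79). Birc5, which encodes survivin of the chromosomal passenger complex, was lower in each BMPC library (16.6, 15.3 and 7.73 TPM) than in any B220+2NBDG- library (91.6, 96.9 and 121 TPM, 7.82-fold). Ube2c, the ubiquitin-conjugating enzyme of the anaphase-promoting complex, was at 11.4, 8.49 and 6.63 TPM against 54.1, 46 and 114 TPM, with replicate 3 the highest of the spleen libraries. Mki67, the gene of the proliferation marker Ki-67, followed with 3.93, 2.7 and 6.9 TPM against 17.4, 17.8 and 35.2 TPM (log2 fold change -2.15, limma adjusted p = 0.00028). The only member that rose was Pttg1, which encodes the separase inhibitor securin, at 118, 107 and 89.3 TPM against 69.8, 84 and 53 TPM (log2 fold change 0.61, limma adjusted p = 0.018). It passed in neither step, and without BMPC replicate 1 or 2 it did not pass in the full comparison either (limma adjusted p = 0.0701 and 0.0534), nor with only the 2 groups in the fit (0.108). Anln, the contractile ring protein anillin, was the member that passed in neither direction.

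DNA replication genes fell less far than mitosis genes. Of 45 S phase genes, 39 fell and none rose, with a median of -1.35, and with median-of-ratios scaling 33 fell and 1 rose with a median of -1.06. The member that rose on that scale was E2f1, which stood at 9.17, 7.1 and 11.1 TPM in the BMPC and 5.53, 7.79 and 5.02 TPM in B220+2NBDG- and did not pass on the main scale (log2 fold change 0.51, limma adjusted p = 0.09, or 0.0485 without B220+2NBDG- replicate 2). Rrm2, the small subunit of ribonucleotide reductase, led the list at 58, 73.7 and 56.6 TPM against 490.2, 622 and 385 TPM, 7.95-fold lower (limma adjusted p = 2.3e-05). Pclaf, a PCNA-binding factor, was at 20.8, 19.1 and 9.6 TPM against 91.9, 115 and 104 TPM. Among the MCM helicase genes Mcm2 fell by the most, from 63.1, 28.9 and 41.2 TPM to 3.96, 3.94 and 17.5 TPM, with BMPC replicate 3 well above the other BMPC libraries. Cdc6, which loads that helicase, was at 2.78, 7.44 and 4.5 TPM against 26.1, 36.5 and 15.9 TPM (log2 fold change -2.21).

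B220-2NBDG+ stood lower still. Within the spleen, 52 mitosis genes and 38 S phase genes were lower in B220-2NBDG+ than in B220+2NBDG- and none was higher (medians -2.66 and -1.64), while between tissues 6 mitosis genes and 2 S phase genes were higher in the BMPC than in B220-2NBDG+ and none was lower (medians 0.51 and 0.31). Cdk1 was at 4.91, 5.71 and 9.91 TPM in B220-2NBDG+, below each BMPC library, but that step did not pass for this gene (log2 fold change 0.91, limma adjusted p = 0.14). Top2a, the topoisomerase that untangles chromosomes, did pass, at 9.27, 12.7 and 8.43 TPM in the BMPC, 3.28, 3.02 and 4.98 TPM in B220-2NBDG+ and 57.3, 78.3 and 42.4 TPM in B220+2NBDG- (step between tissues 1.23, limma adjusted p = 0.047). Genes of early B lineage cells, which divide in the marrow, were also higher in the BMPC libraries (below). So were genes of neutrophils and their precursors, of which 15 rose between tissues. In the BMPC the early B lineage sum was 83.6, 87.2 and 42.4 TPM and the neutrophil sum 6909, 7735 and 11480 TPM. The part of either cell type in this small step was not tested.

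Promoters of the mitosis genes that fell are shown because genes of late cell cycle are known to share 2 elements there, the cell cycle homology region and the CCAAT box, which are bound by the DREAM and MuvB complexes and by NF-Y. The window was the 250 bases before the RefSeq start site (GRCm38.p6), and TTTGAA and CCAAT were searched on both strands. Matches can overlap, as a pair of CCAAT matches on opposite strands does in Ube2c. Of the 52 mitosis genes that fell, 41 had a promoter in the table, and 36.6% of these held TTTGAA, 73.2% CCAAT and 34.1% both. Among all 8670 tested genes with a promoter the shares were 13.7%, 41.2% and 5.24%. The promoters below are those of the members with the largest fall that hold both, with either motif, on either strand, in capitals.
Cdk1, chr10:69352913-69353162, minus strand: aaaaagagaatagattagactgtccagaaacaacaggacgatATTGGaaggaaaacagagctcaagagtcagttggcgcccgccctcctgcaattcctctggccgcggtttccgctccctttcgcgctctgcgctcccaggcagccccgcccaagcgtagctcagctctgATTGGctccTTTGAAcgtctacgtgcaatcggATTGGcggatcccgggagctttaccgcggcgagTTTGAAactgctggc
Ube2c, chr2:164769679-164769928, plus strand: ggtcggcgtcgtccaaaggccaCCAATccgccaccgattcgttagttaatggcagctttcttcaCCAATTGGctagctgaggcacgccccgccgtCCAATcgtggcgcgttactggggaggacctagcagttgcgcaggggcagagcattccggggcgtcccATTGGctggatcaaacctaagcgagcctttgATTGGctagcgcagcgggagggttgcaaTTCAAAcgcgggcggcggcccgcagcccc
Ncapg, chr5:45669675-45669924, plus strand: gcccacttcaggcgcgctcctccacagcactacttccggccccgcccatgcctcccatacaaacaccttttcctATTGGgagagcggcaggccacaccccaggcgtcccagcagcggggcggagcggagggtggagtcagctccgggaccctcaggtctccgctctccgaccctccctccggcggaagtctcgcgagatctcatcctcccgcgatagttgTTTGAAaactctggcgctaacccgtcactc
In Cdk1 the TTTGAA nearest to the start site begins 15 bases before it, in Ube2c 29 and in Ncapg 30. Ncapg encodes a condensin subunit and was at 2.98, 2.36 and 1.89 TPM in the BMPC and 21.2, 22.6 and 14.9 TPM in B220+2NBDG-.

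S phase promoters were searched in the same window for the E2F letters TTTGGCGC, TTTCGCGC and TTCCCGCC on both strands, some of which can overlap one another. Of the 39 S phase genes that fell, 32 had a promoter, and 28.1% held such a site against 5.37% of all tested genes with one. The printed promoters are those of the members with the largest fall that hold a site, in capitals.
Mcm5, chr8:75109259-75109508, plus strand: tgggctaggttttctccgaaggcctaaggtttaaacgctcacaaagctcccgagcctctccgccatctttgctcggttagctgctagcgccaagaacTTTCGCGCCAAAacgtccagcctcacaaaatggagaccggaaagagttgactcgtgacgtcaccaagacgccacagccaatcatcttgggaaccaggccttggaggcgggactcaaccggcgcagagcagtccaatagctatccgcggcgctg
Dtl, chr1:191575545-191575794, minus strand: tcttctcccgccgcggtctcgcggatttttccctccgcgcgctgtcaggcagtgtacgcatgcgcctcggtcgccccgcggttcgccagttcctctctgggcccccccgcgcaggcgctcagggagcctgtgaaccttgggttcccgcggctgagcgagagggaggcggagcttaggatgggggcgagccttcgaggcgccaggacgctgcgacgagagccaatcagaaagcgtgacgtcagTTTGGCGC
In Mcm5 a pair of overlapping sites on opposite strands begins 153 and 149 bases before the start site, and in Dtl a single site begins 8 bases before it. Mcm5, a subunit of the replicative helicase, was at 11.7, 13.7 and 16.2 TPM in the BMPC and 57.6, 71.6 and 35.2 TPM in B220+2NBDG-, and Dtl, which directs degradation of licensing factors, at 0.886, 2.23 and 1.36 TPM and 5.59, 7.39 and 5.59 TPM. A motif match is a description of the sequence and not a binding site.

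**Figure D2:**
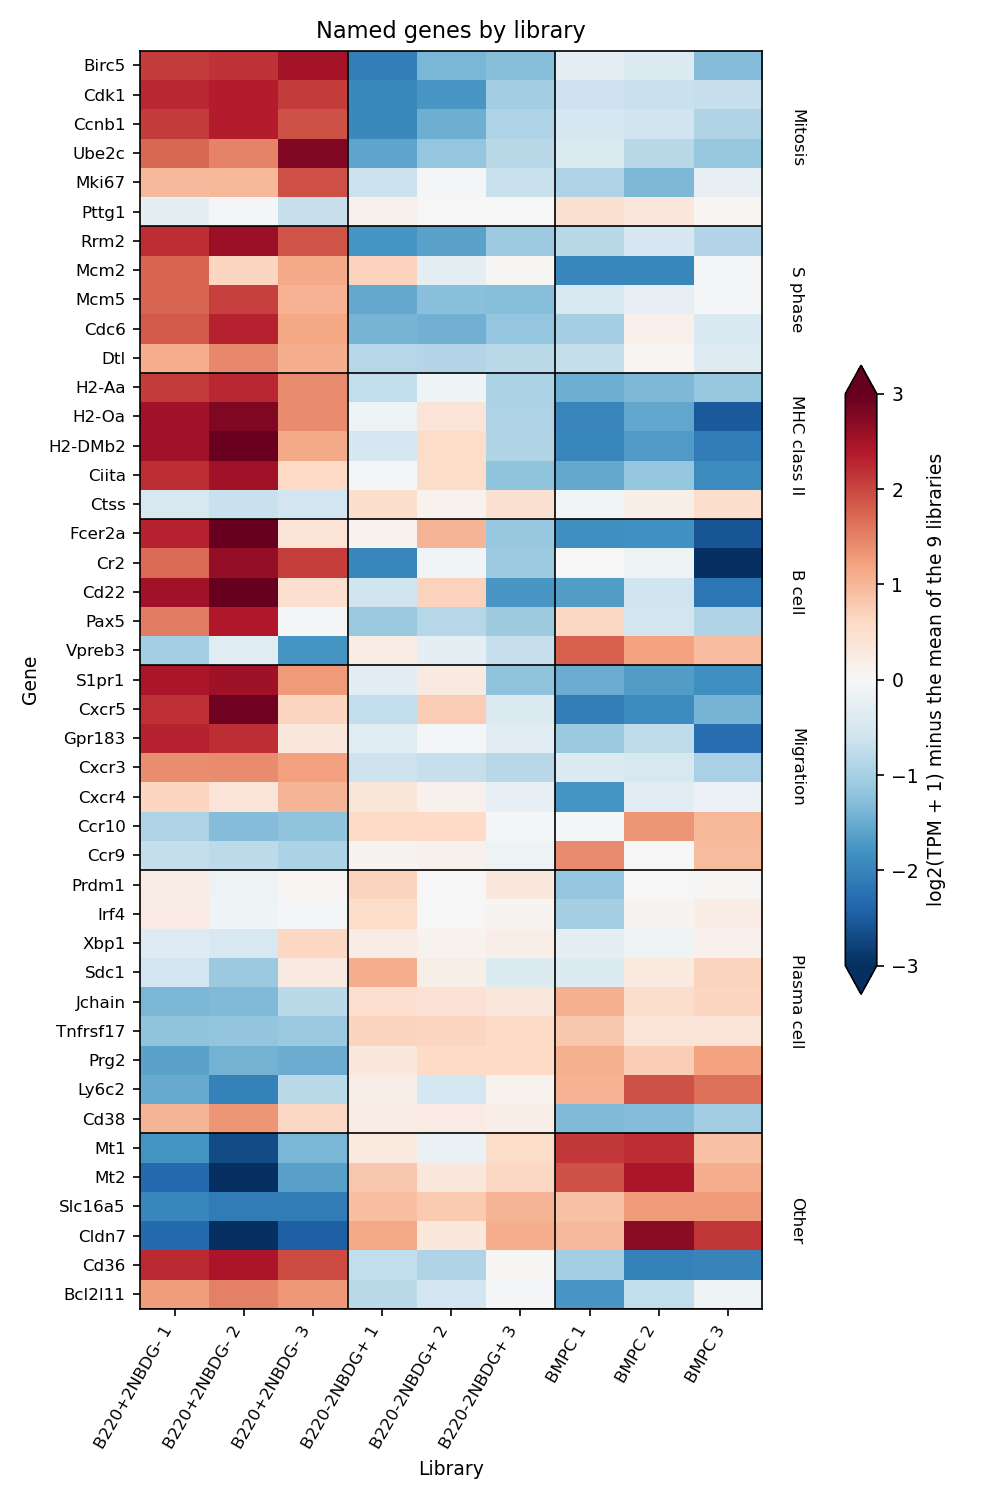
Colour gives log2(TPM + 1) of each named gene (rows) in each of 9 libraries (columns: B220+2NBDG-, B220-2NBDG+ and BMPC) minus the gene's mean over the 9. The mitosis, S phase and MHC class II rows other than Pttg1 and Ctss are red in the 3 B220+2NBDG- libraries, and the transcription factors Prdm1, Irf4 and Xbp1 show no such split.

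Most MHC class II presentation genes fell. Class II molecules display peptides to helper T cells and are lost as B cells become plasma cells. Of 16 tested genes 12 fell and 1 rose, with a median of -2.07, and with median-of-ratios scaling 11 fell and 1 rose with a median of -1.70. H2-Oa and H2-Ob encode the class II modifier DO. H2-Oa gave the lowest log2 fold change of all genes eligible for naming, at 2.54, 3.7 and 1.44 TPM in the BMPC against 78.6, 96.1 and 36.1 TPM in B220+2NBDG- (27.4-fold, log2 fold change -4.26, SE 0.48, limma adjusted p = 5.6e-05). H2-DMb2, a chain of the peptide loader DM, was at 12.7, 15.2 and 11.3 TPM against 301, 411 and 116 TPM. Replicate 3 was the lowest of the spleen libraries for both genes and still lay well above the BMPC.

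H2-Aa, the alpha chain of the class II molecule I-A, remained abundant in the BMPC at 234, 251 and 295 TPM, 9.73-fold below the 2774, 3099 and 1723 TPM of B220+2NBDG- (limma adjusted p = 1.3e-05). Ciita, the master activator of class II transcription, was close to the limit of the filter in the BMPC at 0.712, 1.19 and 0.311 TPM against 21.8, 27.2 and 6.45 TPM. Cd74, the invariant chain, moved far less than the chains it escorts, from 35815, 33600.4 and 21135 TPM to 16378, 20508 and 20265 TPM (1.58-fold), and its call was lost with median-of-ratios scaling (limma adjusted p = 0.022 and 0.34). It was also lost without spleen replicate 1 or 2 or without BMPC replicate 1 (limma adjusted p = 0.0842, 0.0769 and 0.0887). Ctss, the lysosomal protease cathepsin S that trims the invariant chain, was the member that rose, at 930.0, 1101 and 1410.3 TPM against 699.7, 618 and 658 TPM. Macrophages also express it, and monocyte, macrophage and dendritic cell markers other than Ly6c2 summed to 1069, 660 and 993 TPM in the BMPC and 181, 481 and 587 TPM in B220+2NBDG-. Their part in this rise was not tested. Within the spleen 10 members fell (median -1.42), and H2-Aa was at 387, 586 and 334 TPM in B220-2NBDG+. Between tissues 2 members fell, H2-Ab1 and the protease gene Lgmn (median -0.66 over the list).

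B cell identity genes showed a graded pattern. Of 46 genes of the B cell programme, 26 fell and 1 rose (median -0.96), and with median-of-ratios scaling 19 fell and 1 rose (median -0.67). Surface receptors of mature B cells led. Fcer2a, the low-affinity IgE receptor CD23, was at 2.82, 2.84 and 1.29 TPM in the BMPC and 66.3, 156 and 17.1 TPM in B220+2NBDG- (log2 fold change -4.16, SE 0.84, limma adjusted p = 0.0033). Cd22, an inhibitory coreceptor of the B cell receptor, was at 9.07, 20.4 and 6.22 TPM against 185, 267 and 44.7 TPM. Cr2, the complement receptor CD21, was at 12.8, 11.6 and 0.579 TPM against 44, 85.8 and 57.5 TPM. All 3 were highest in spleen replicate 2, and the spleen libraries differed widely among themselves without overlapping the BMPC.

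Replicate 3 was the lowest of the spleen libraries for Fcer2a and Cd22, and the same order was seen for Ighd, the IgD constant gene of naive B cells, at 0.0841%, 0.186% and 0.0333% of heavy chain constant TPM in replicates 1, 2 and 3 of B220+2NBDG-, against 0.00178%, 0.0138% and 0.00176% in the BMPC. The part of unswitched B cells in the spleen sort in these differences was not tested. Cd79a, a signalling chain of the B cell receptor, did not pass, at 1786, 1283 and 1376 TPM against 1439, 1571 and 1185 TPM (log2 fold change 0.08, limma adjusted p = 0.71). Pax5, the B cell identity factor, was at 8.52, 3.18 and 2.3 TPM against 16.7, 31.5 and 4.89 TPM and did not pass (limma adjusted p = 0.051, or 0.00494 without spleen replicate 3 and 0.0305 without BMPC replicate 1). Leaving out spleen replicate 3 raised the number of members that fell from 26 to 33. Vpreb3 was the member that rose, at 656, 437 and 356 TPM against 92.1, 146 and 54.1 TPM (4.96-fold, limma adjusted p = 0.0007). It encodes a protein related to the surrogate light chain and is expressed in precursor B cells as well as later.

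Receptors that steer migration fell more often than they rose. Of 23 tested chemokine and sphingosine phosphate receptor genes and their regulator Klf2, 14 fell and 3 rose (median -0.88), and with median-of-ratios scaling 11 fell and 3 rose (median -0.59). S1pr1, which leads lymphocytes out of tissues into blood and lymph, was at 1.07, 0.82 and 0.619 TPM in the BMPC and 30.6, 33 and 13.1 TPM in B220+2NBDG- (log2 fold change -3.76, SE 0.47, limma adjusted p = 0.00011). Klf2, the factor that activates S1pr1, was at 1.87, 2.09 and 0.975 TPM against 5.67, 5.19 and 4.54 TPM. Receptors that place B cells within follicles and at their borders were also lower, with Cxcr5 at 0.631, 0.858 and 1.59 TPM against 30.4, 50.6 and 9.65 TPM and Gpr183 (EBI2) at 5.71, 7.46 and 1.96 TPM against 70.8, 65.9 and 17.1 TPM. T cells express several of these receptors, and T cell markers summed to 911, 452 and 139 TPM in B220+2NBDG- against 56.9, 76.1 and 68.1 TPM in the BMPC, whose part was not tested.

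Cxcr3, the receptor for interferon-induced chemokines, was tight in both groups at 27.1, 25.8 and 18.1 TPM and 96.4, 97.9 and 86.1 TPM and 3.95-fold lower in the BMPC (limma adjusted p = 1e-05). Cxcr4, the receptor for the marrow chemokine CXCL12, was lower too, at 4.25, 13.2 and 14.8 TPM against 27.2, 22.5 and 35.6 TPM (log2 fold change -1.45, limma adjusted p = 0.0075), a call lost with only the 2 groups in the fit (limma adjusted p = 0.0762). It did not pass in either step, and B220-2NBDG+ was at 22, 18.5 and 14.3 TPM. The members that rose were Ccr10, Ccr9 and Ackr3. Ccr10 and Ccr9 guide IgA plasma cells to mucosal tissues, and were at 4.91, 14.5 and 11.3 TPM against 2.28, 1.5 and 1.7 TPM and at 20.3, 7.06 and 14.3 TPM against 3.86, 3.61 and 3.08 TPM (log2 fold changes 1.89 and 1.62). Ackr3, a scavenger of CXCL12, was at 2.46, 2.8 and 5.5 TPM against 1.17, 0.509 and 1.07 TPM.

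Plasma cell identity genes did not move as one. Of 39 tested members 8 rose and 9 fell (median -0.25), and with median-of-ratios scaling 12 rose and 3 fell (median 0.12). Without spleen replicate 2 or BMPC replicate 3, 5 rose. Regulators that define the lineage did not pass: Prdm1 was at 16.2, 37.9 and 38.3 TPM in the BMPC and 44.1, 33.4 and 38.9 TPM in B220+2NBDG-, and Irf4 at 107, 229 and 249.9 TPM and 254, 197 and 209 TPM (limma adjusted p = 0.35 and 0.53). BMPC replicate 1 was the lowest of the 6 libraries for both. Jchain rose 3.76-fold, with 124923, 86131 and 94448 TPM in the BMPC and 23142, 23756 and 34440.4 TPM in B220+2NBDG- (limma adjusted p = 5.5e-06). Tnfrsf17, which encodes the APRIL receptor BCMA, was at 379, 283 and 279.5 TPM against 92.4, 93.6 and 99.6 TPM with little spread (log2 fold change 1.70, SE 0.14, limma adjusted p = 6.3e-06). Both were already raised in B220-2NBDG+, at 84898, 80689 and 76026 TPM for Jchain and 343, 335 and 328 TPM for Tnfrsf17, and neither passed between tissues (limma adjusted p = 0.31 and 0.73).

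Prg2, which encodes a major basic protein of eosinophil granules, was the rise with the lowest p-value on this list, at 2512, 2017 and 2784 TPM against 399.7, 450.0 and 427 TPM (5.73-fold, limma adjusted p = 1.8e-07). It was already raised in B220-2NBDG+, at 1513, 1841 and 1815 TPM, and did not pass between tissues. Of 7 tested markers of mast cells, basophils and eosinophils, Prg2 included, 3 rose and none fell (median 1.09). These counts were 4 and none with median-of-ratios scaling and 1 and none with only the 2 groups in the fit. Of 17 such markers, 6 were under 1 TPM in every BMPC library and 11 in every B220+2NBDG- library. Prss34 was at 26, 3.46 and 1.25 TPM against 0, 0.0816 and 0 TPM. A marker this low in B220+2NBDG- could not be counted as a fall. The groups overlapped for Prg3, at 6.86, 4.26 and 11.1 TPM against 6.75, 6.88 and 9.78 TPM. The part of such cells in the rise of Prg2 was not tested. Slpi, which is on no list and was singled out after its values were seen, was at 47569, 34796 and 49857 TPM against 12903, 12859 and 9939 TPM (limma adjusted p = 8.5e-06). Cd38, an ectoenzyme that consumes NAD, fell in both steps: 62.3, 76.4 and 47 TPM in B220+2NBDG-, 35.7, 36 and 35.1 TPM in B220-2NBDG+ and 11.4, 11.7 and 14.2 TPM in the BMPC. The groups did not overlap at either step (limma adjusted p = 0.0079 within the spleen and 0.00043 between tissues). Cox6a2, an isoform of a cytochrome oxidase subunit best known from muscle, moved in opposite directions in the steps, from 14.1, 19.2 and 17.6 TPM to 68.9, 113 and 75.6 TPM within the spleen and to 30.7, 24.4 and 41.8 TPM in the BMPC (log2 fold changes 2.25 and -1.38, limma adjusted p = 0.00017 and 0.029).

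**Figure D3:**
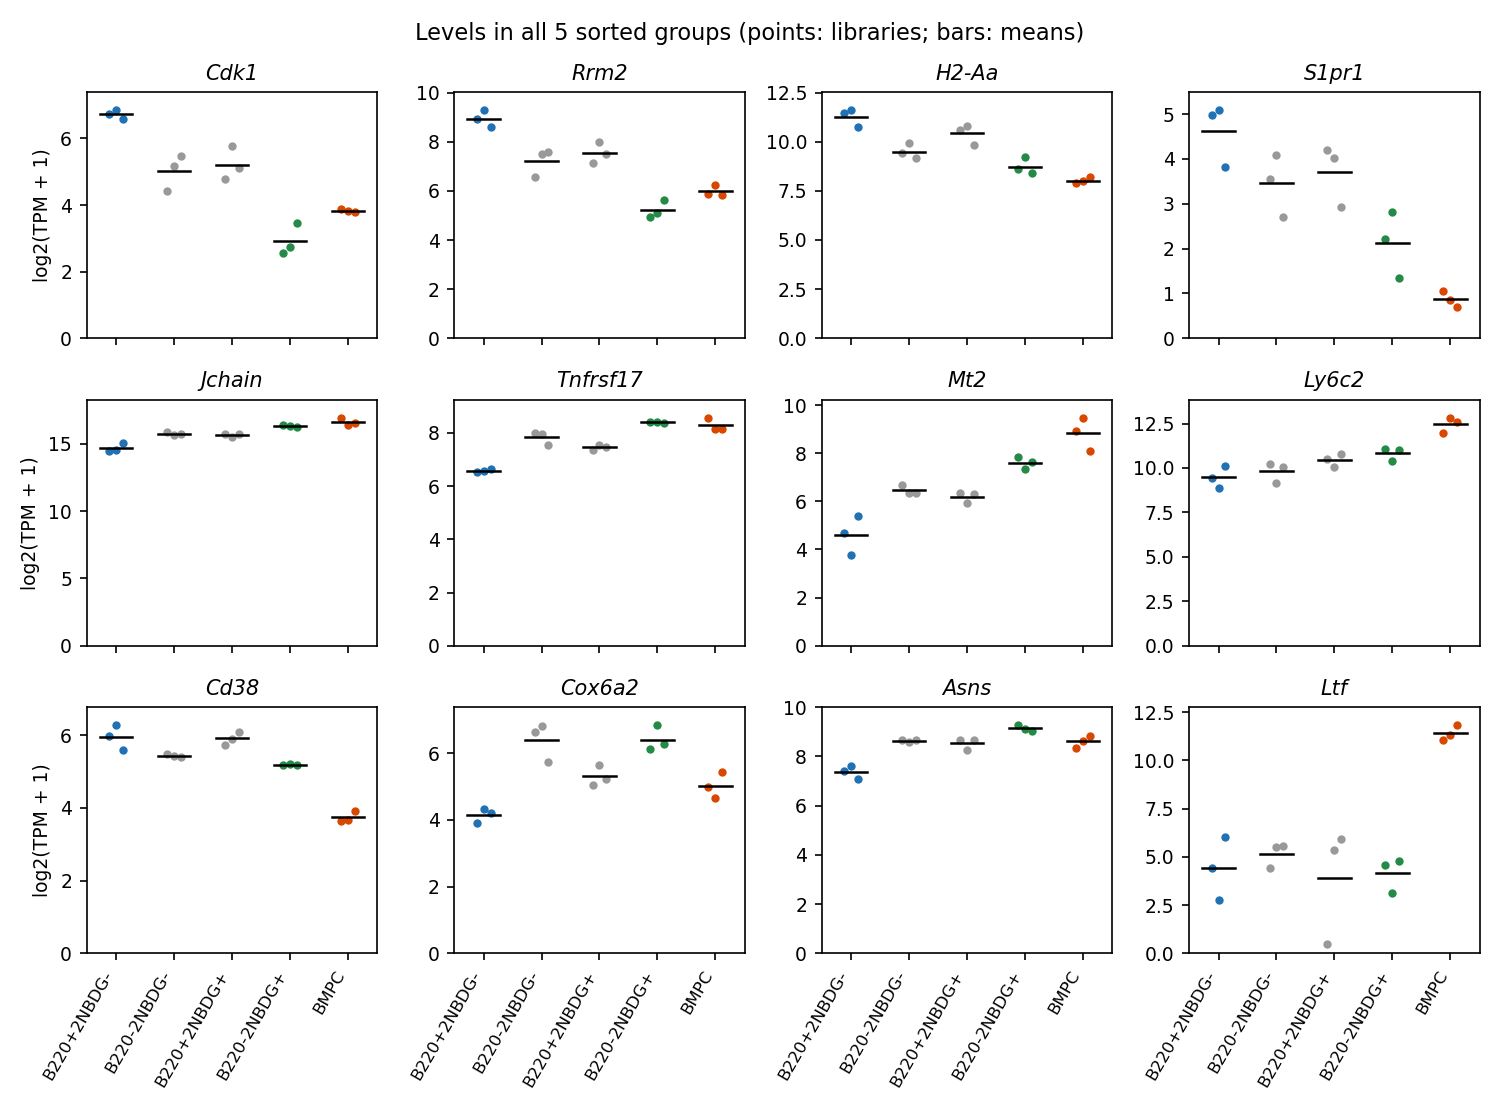
Points give log2(TPM + 1) of 12 genes in each of the 3 libraries of all 5 groups, and bars the group means. Cdk1, Rrm2 and H2-Aa are highest in B220+2NBDG-, Jchain and Tnfrsf17 lowest there, Cd38 is lowest in the BMPC, and Ltf is high only in the BMPC libraries among the 15.

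Immunoglobulin took a larger share of the deposited TPM in the BMPC, at 94.9%, 95.3% and 96.3%, than in B220+2NBDG-, at 91.1%, 91.7% and 92.1%. B220-2NBDG+ stood at 96.3%, 96.3% and 96.6%, overlapping the BMPC. The means were 95.5% ± 0.737 and 91.6% ± 0.527 (SD, n = 3 each), a difference of 3.88 points with groups that did not overlap (two-sided exact permutation p = 0.1, the smallest that 3 against 3 can give). The isotypes differed by more. Igha, the IgA constant gene, gave 62.8%, 37.8% and 31.4% of heavy chain constant TPM in the BMPC and 5.66%, 7.42% and 2.73% in B220+2NBDG-, and the BMPC libraries were spread widely without overlapping the spleen. Ighm, for IgM, gave 19.0%, 54.5% and 52.8% against 68.7%, 69.3% and 79.6%. Both differences had an exact permutation p of 0.1 (adjusted over 8 isotypes, 0.16), which is again the smallest possible, so the design cannot place them past 0.05. B220-2NBDG+ was between the groups for Igha at 19.4%, 18% and 10.9%, and its Ighm shares of 56.6%, 50.9% and 66.1% overlapped those of the BMPC.

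The Ly6 family, small GPI-anchored surface proteins encoded largely in a cluster on chromosome 15, held 8 rises among 15 tested members and no fall (median 0.85, or 9 and none with median-of-ratios scaling). The other members did not pass, and the lowest had a log2 fold change of -0.96. Ly6c2 was at 4013, 7247 and 6112 TPM in the BMPC and 679, 474 and 1101 TPM in B220+2NBDG- (7.71-fold, limma adjusted p = 6.9e-05), and it rose in both steps (1.37 within the spleen and 1.62 between tissues). Reads of near-identical copies can be split between them, which leaves single values of Ly6, H2 and immunoglobulin constant genes uncertain. Ly6c1, such a copy, stood at 18.1, 34.1 and 33.5 TPM against 4.47, 4.83 and 5.37 TPM. Monocytes also express Ly6c2. The sum of the other markers of that lineage, given above beside Ctss, was higher in each BMPC library than in any B220+2NBDG- library. Lyz2 was the largest part of that sum in each BMPC library. In B220-2NBDG+ the sum was 350.9, 1086 and 1514 TPM, which overlapped the BMPC. Of the 21 tested markers, Ly6c2 included, 2 rose and none fell in the full comparison. The libraries did not overlap for 3 markers that were higher in the BMPC and 2 that were lower. The part of monocytes in the result was not tested. Cd59a, an inhibitor of complement lysis, was at 26.8, 79.2 and 46.3 TPM against 5.72, 6.7 and 9.19 TPM. Ly6g, the marker against which the cells were sorted, was low but higher in the BMPC (15, 4.61 and 10.6 TPM against 2.11, 1.51 and 2.15 TPM).

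Metallothioneins, small proteins that bind zinc and copper, also rose. Mt1 and Mt2 are neighbours on chromosome 8. Mt2 was at 485, 708 and 272 TPM in the BMPC, 225, 163 and 198 TPM in B220-2NBDG+ and 24.6, 12.5 and 41 TPM in B220+2NBDG- (18.8-fold over the full comparison, limma adjusted p = 9.2e-06). Mt1 was at 2038, 2179 and 872 TPM, 573, 409.5 and 687 TPM and 136, 72.5 and 181 TPM in the same order. BMPC replicate 3 was the lowest of the BMPC for both, and neither gene passed between tissues (limma adjusted p = 0.12 and 0.053). Over the 34 tested genes of metal and oxidant defence 6 rose and 5 fell (median -0.09), against 8 and 1 with median-of-ratios scaling (median 0.28). Without BMPC replicate 1, 3 rose and 3 fell, and without spleen replicate 1, 3 fell. Gpx3, a secreted glutathione peroxidase, was the member with the largest fall, at 13.7, 18.3 and 10.5 TPM against 75.1, 64.5 and 109 TPM.

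Cldn7, a claudin of epithelial junctions, was at 53.5, 179 and 121 TPM in the BMPC against 4.52, 1.27 and 4.06 TPM in B220+2NBDG- (log2 fold change 4.74, SE 0.41, limma adjusted p = 9e-06), and Epcam, an epithelial adhesion molecule, at 9.35, 19.9 and 15.4 TPM against 4.88, 3.09 and 7.08 TPM. The call of Epcam was lost with only the 2 groups in the fit (limma adjusted p = 0.0024 and 0.0518). B220-2NBDG+ was at 59.6, 33.5 and 58.2 TPM for Cldn7 and 11.7, 10.1 and 11.2 TPM for Epcam. Cyp2b10, a cytochrome P450 of the detoxifying kind, was at 0.0509, 0 and 0 TPM in B220+2NBDG- and at 14.1, 67.4 and 44.4 TPM in the BMPC. In B220-2NBDG+ it was at 2.09, 1.02 and 2.03 TPM, and both steps passed (limma adjusted p = 0.033 within the spleen and 0.00027 between tissues). Among 36 tested integrins and adhesion molecules 5 rose and 10 fell (median -0.37), or 6 and 5 with median-of-ratios scaling (median -0.05), and without BMPC replicate 1, 6 fell. Cd2, an adhesion receptor shared with T cells, fell from 215, 188 and 124 TPM to 32.7, 25.1 and 13.2 TPM.

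Genes of the secretory route fell more often than they rose on the main scale, and less so with median-of-ratios scaling. Of 48 genes of the unfolded protein response and ER chaperones 15 fell and none rose (median -0.56), but with median-of-ratios scaling 5 fell and 5 rose (median -0.21). The translocon and vesicle transport list gave 21 of 52 lower (median -0.40) against 6 lower and 5 higher (median -0.03), N-glycosylation 14 of 35 lower (median -0.62) against 7 lower and 1 higher (median -0.25), and the proteasome 16 of 38 lower (median -0.41) against 3 lower and 1 higher (median -0.03). Without BMPC replicate 1, 13 translocon and transport genes and 10 proteasome genes were lower, and without BMPC replicate 2, 9 proteasome genes. Some members fell under both scalings. Hsp90b1, the ER chaperone GRP94, was at 1213, 1332 and 1495 TPM against 3129, 3279 and 3434 TPM (log2 fold change -1.29, or -0.91 with median-of-ratios scaling, limma adjusted p = 1.5e-05 and 0.00021). Manf, an ER stress-induced secreted factor, was at 716, 843 and 807 TPM against 1861, 1649 and 2318 TPM, and Calr, the lectin chaperone calreticulin, at 384, 436 and 531 TPM against 969.7, 938 and 1068 TPM. B4galt1, the galactosyltransferase that extends N-glycans, showed the largest fall among these lists, at 3.54, 6.3 and 9.23 TPM against 35, 36.1 and 32.9 TPM (5.45-fold, limma adjusted p = 3e-05). Kdelr2, a receptor that returns chaperones to the ER, was at 66.6, 95.8 and 134 TPM against 246, 249 and 264 TPM. Libraries of the 2 groups did not overlap for any of these 5 genes.

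Growth-related lists shared that dependence on the scale. Among MYC and ribosome biogenesis genes 14 of 37 fell (median -0.54), but 3 with median-of-ratios scaling (median -0.16) and 9 without BMPC replicate 1. Myc itself was at 6.13, 9.95 and 11.8 TPM against 20.3, 27.4 and 22.5 TPM and fell under both (limma adjusted p = 0.0016 and 0.0046). Of 46 cytosolic ribosomal protein genes 12 fell and none rose (median -0.28), where 21.5% of all tested genes fell with a median of -0.32. With median-of-ratios scaling none fell and 1 rose (median 0.10). On the main scale 7 fell without BMPC replicate 1 or spleen replicate 3, and 5 without BMPC replicate 2.

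**Figure D4:**
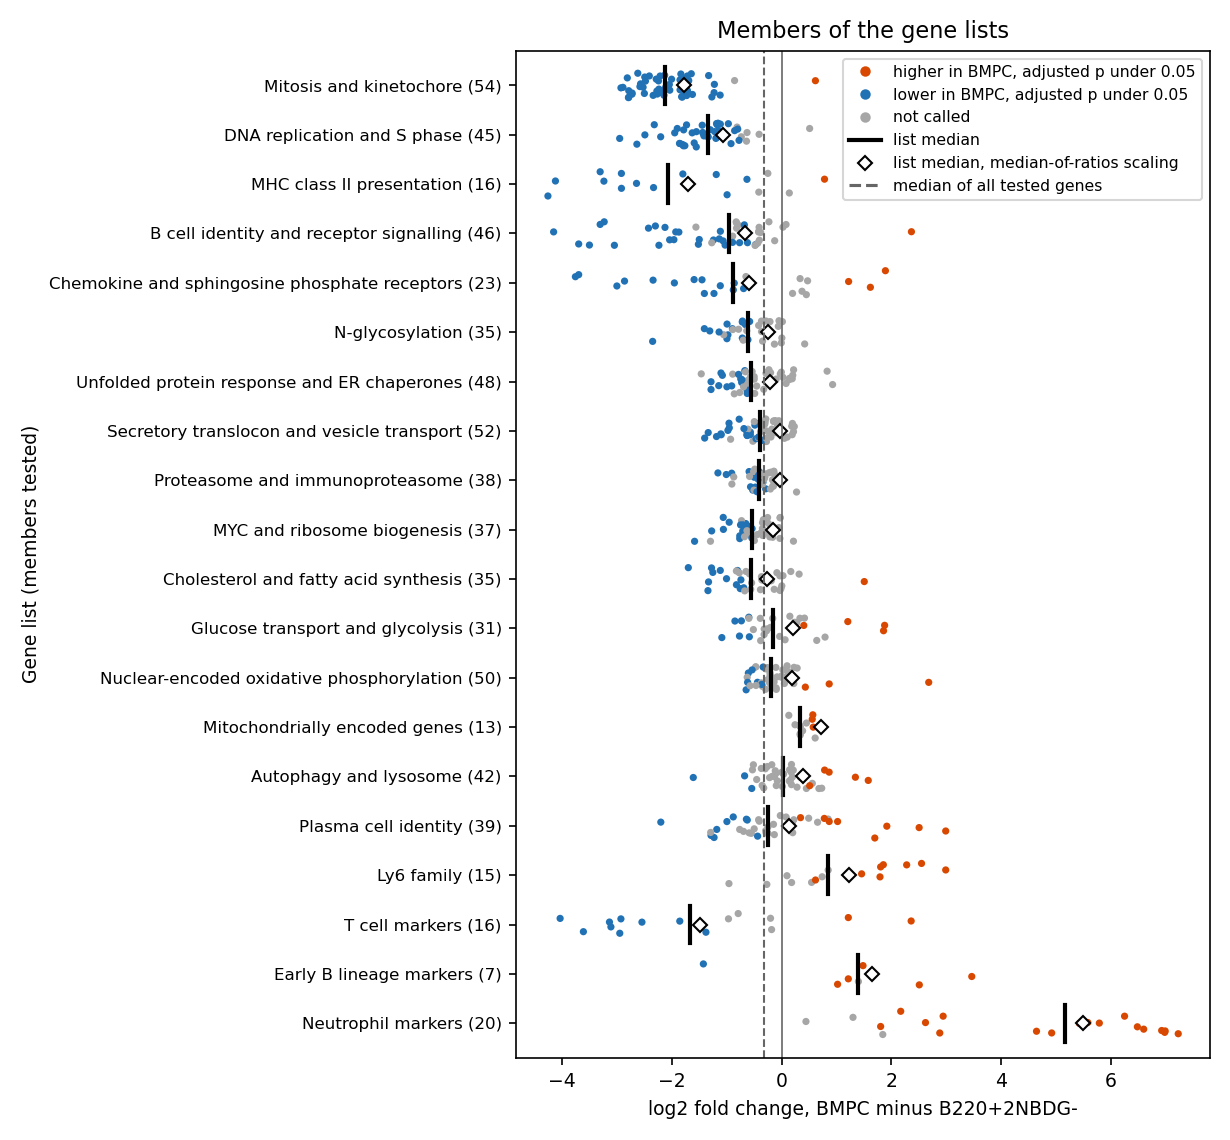
Each point is the log2 fold change of a tested list member, BMPC minus B220+2NBDG-, coloured by its call, with list medians as bars and the medians with median-of-ratios scaling as diamonds. Lists near the dashed median of all genes at -0.32, such as the proteasome list at -0.41, change sides of 0 or come close to it on the other scale, while the mitosis list at -2.12 and the neutrophil list at 5.17 do not.

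Glucose handling genes moved both ways. Of 31 glucose transport and glycolysis genes 4 rose and 6 fell (median -0.16), or 8 and 1 with median-of-ratios scaling (median 0.21), and 2 rose without BMPC replicate 1. Ldhb, the lactate dehydrogenase subunit of oxidative tissues, was the largest rise, at 2.96, 6.67 and 5.55 TPM in the BMPC and 0.426, 0.84 and 0.535 TPM in B220+2NBDG-, while Ldha, the subunit of glycolytic tissues, was at 202, 206 and 196 TPM and 362, 378 and 298 TPM and fell on the main scale (log2 fold changes 1.88 and -0.77, limma adjusted p = 0.0067 and 0.001). The transporter genes Slc2a1 and Slc2a3 were at 11.7, 17.9 and 13.9 TPM and 12.4, 9.0 and 8.88 TPM in the BMPC and at 12.6, 11.3 and 12.2 TPM and 7.4, 16.4 and 4.55 TPM in B220+2NBDG-, and neither passed (limma adjusted p = 0.46 and 0.74). Eno1, a glycolytic enolase, was at 311, 314 and 349 TPM against 614, 731 and 449 TPM and fell on the main scale but not on the other (limma adjusted p = 0.011 and 0.16). Pfkp, the platelet isoform of phosphofructokinase, was the member that fell under both, at 49.6, 69.5 and 109.9 TPM against 162, 165 and 141 TPM, and it also fell between tissues (log2 fold change -1.21, limma adjusted p = 0.019). With only the 2 groups in the fit its full comparison did not pass (limma adjusted p = 0.0513). Slc16a5, a monocarboxylate transporter family member, rose 11.4-fold from 3.91, 3.43 and 3.45 TPM to 33.6, 44.7 and 45.1 TPM (limma adjusted p = 5.9e-07). It was alone to pass among the 7 tested genes of the monocarboxylate transporter list, which also holds Bsg and Emb. B220-2NBDG+ was at 34.4, 31.7 and 37.1 TPM, and the gene did not pass between tissues (limma adjusted p = 0.56).

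Of 35 genes of pyruvate import and the TCA cycle 8 fell and none rose (median -0.27). That share is near the 21.5% of all tested genes that fell, whose median was -0.32. With median-of-ratios scaling none fell and 1 rose (median 0.09). On the main scale 13 fell without spleen replicate 3 and 5 without BMPC replicate 2. All 13 mitochondrially encoded genes had a log2 fold change above 0, of which 3 passed on the main scale (median 0.34) and 13 with median-of-ratios scaling (median 0.72). On the main scale 11 passed without spleen replicate 3 and 1 without spleen replicate 2, BMPC replicate 1 or BMPC replicate 2. mt-Cytb, the cytochrome b subunit of complex III, was at 4802, 5078 and 4519 TPM against 3209, 2958 and 3649.9 TPM (limma adjusted p = 0.0069). The direction was the opposite for deposited TPM with immunoglobulin genes kept in the total, where 9 of the 13 fell. Of 50 nuclear-encoded genes of oxidative phosphorylation 3 rose and 7 fell (median -0.19), or 13 and none with median-of-ratios scaling (median 0.18), and 3 fell without any 1 of the BMPC libraries. Cox4i2, a cytochrome oxidase isoform induced by low oxygen, rose under both, at 19.9, 49.7 and 64.1 TPM against 5.36, 7.6 and 3.79 TPM.

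Cd36, a scavenger receptor that takes up fatty acids and lipoproteins, was at 4.24, 1.6 and 1.65 TPM in the BMPC, 5.31, 4.63 and 9.81 TPM in B220-2NBDG+ and 49.3, 56.9 and 40.2 TPM in B220+2NBDG- (19.6-fold over the full comparison, limma adjusted p = 5.7e-06). Of 33 tested genes of fatty acid oxidation and peroxisomes, 1 rose and 2 fell (median -0.11), or 7 and 1 with median-of-ratios scaling (median 0.27). Without spleen replicate 3, 2 rose and 6 fell, without spleen replicate 1 none rose, without BMPC replicate 1, 2 rose, and without BMPC replicate 3, 4 fell. Of 35 cholesterol and fatty acid synthesis genes 12 fell and 1 rose (median -0.57), and 8 fell and 1 rose with median-of-ratios scaling (median -0.28). Cyp51, an enzyme of cholesterol synthesis, was at 4.62, 5.75 and 5.45 TPM against 14.8, 13.5 and 14.3 TPM.

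Amino acid genes that the stress factor ATF4 controls were called mainly within the spleen. Over 30 tested genes 13 rose and 1 fell in B220-2NBDG+ against B220+2NBDG- (median 0.54), and between tissues none rose and 3 fell (median -0.63). The full comparison gave 6 higher and 2 lower (median -0.08), or 8 and 1 with median-of-ratios scaling (median 0.26). Asns, asparagine synthetase, was at 168, 192 and 134 TPM in B220+2NBDG-, 613, 545 and 528 TPM in B220-2NBDG+ and 321, 399 and 459 TPM in the BMPC, so that the BMPC lay between. Slc7a4, a member of the cationic amino acid transporter family, rose in the full comparison, at 12.9, 20.9 and 25.1 TPM against 2.54, 2.12 and 1.52 TPM (log2 fold change 2.72, limma adjusted p = 1.9e-05). Among 42 autophagy and lysosome genes 5 rose and 3 fell (median 0.02), or 13 and none with median-of-ratios scaling (median 0.39). Without BMPC replicate 1 or 3, 1 fell. The largest rise was Ctsl, the protease cathepsin L, at 127, 94.7 and 107 TPM against 34.3, 31.6 and 42.5 TPM.

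Survival genes were mixed. Of 36 tested receptors and signalling genes of the survival niche 3 rose and 9 fell (median -0.26), or 7 and 6 with median-of-ratios scaling (median 0.05), and 6 rose without BMPC replicate 1. Besides Tnfrsf17, the rises were Tnfrsf13b, which encodes the other APRIL receptor TACI, at 446, 618 and 448 TPM against 343, 278 and 274 TPM, and Cd93, which keeps plasma cells in the marrow, at 12.5, 15.4 and 17.8 TPM against 5.92, 6.97 and 8.09 TPM. Cd28, a costimulatory receptor of long-lived plasma cells, was at 32.5, 22.8 and 30.5 TPM against 19.1, 17.8 and 22.8 TPM and did not pass on the main scale but passed with median-of-ratios scaling (limma adjusted p = 0.073 and 0.013). It also passed without spleen replicate 3 or BMPC replicate 2 (limma adjusted p = 0.0494 and 0.0455). Il21r, the receptor for the T helper cytokine IL-21, led the falls at 1.95, 0.873 and 1.52 TPM against 21.7, 31 and 9.56 TPM. In the BCL2 family 4 of 19 genes fell and 1 rose (median -0.04), or 3 and 4 with median-of-ratios scaling (median 0.21). Bcl2l11, which encodes the death activator BIM, fell 4.58-fold from 44.2, 53.1 and 45.6 TPM to 4.69, 10.3 and 16.2 TPM (limma adjusted p = 0.0005). The protective genes Mcl1 and Bcl2 did not pass, at 21.7, 28.8 and 36.3 TPM against 29.8, 32 and 55.3 TPM and 8.28, 9.24 and 14.9 TPM against 9.68, 10.8 and 8.58 TPM.

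Marker genes of other cell types differed between the groups and were among the largest rises. Of the 12 genes with the highest log2 fold change, 10 were granule or antimicrobial genes of neutrophils and their precursors. Ltf, which encodes lactoferrin, was at 2134, 2517 and 3599.9 TPM in the BMPC, 22.6, 7.87 and 26.9 TPM in B220-2NBDG+ and 20.8, 5.84 and 63.6 TPM in B220+2NBDG- (log2 fold change 6.98, SE 1.14, limma adjusted p = 0.00082). Ngp, another granule protein, led at 736, 785 and 1323 TPM against 3.79, 1.14 and 21.3 TPM (log2 fold change 7.23), and Elane, neutrophil elastase of early precursors, was at 101, 194 and 358 TPM against 2.83, 0.215 and 0.685 TPM. Over the list, 17 of 20 tested neutrophil markers rose and none fell (median 5.17, or 17 and none with median-of-ratios scaling), 15 rose between tissues and none within the spleen. The filter takes genes with 1 TPM in any 3 libraries, so a marker can be tested through the BMPC alone. Such a marker could not be counted as a fall. Ctsg, for example, was at 2.55, 7.13 and 14.7 TPM in the BMPC and at 0 TPM in each B220+2NBDG- library. The neutrophil sum was 6909, 7735 and 11480.4 TPM in the BMPC and 69.1, 55.7 and 459.6 TPM in B220+2NBDG-. Of 22 markers in the table none was under 1 TPM in every BMPC library and 7 were under 1 TPM in every B220+2NBDG- library. The sort excluded Ly6g+ cells, and the share of these transcripts that came from other cells in the sort, from free RNA or from the plasma cells was not tested.

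Early B lineage genes were a second set. Igll1, a surrogate light chain gene of precursor B cells, was at 36.7, 46.9 and 9.94 TPM in the BMPC, 0, 0 and 1.63 TPM in B220-2NBDG+ and 3.18, 0.508 and 1.33 TPM in B220+2NBDG-, and Dntt, the terminal transferase of V(D)J joining, at 5.98, 6.57 and 3.33 TPM, 0.151, 0 and 0 TPM and 0.0853, 0.0868 and 0.0553 TPM. Of 7 tested members 5 rose and 1 fell in the full comparison under both scalings (medians 1.40 and 1.65). Cd93 was among these rises and is also counted with the survival genes. It was at 14.4, 11.9 and 10.3 TPM in B220-2NBDG+. Il7r is a member of both this list and the T cell list. The limit of the filter given for the neutrophil markers holds here too, as for Dntt. T cell transcripts went the other way, with 10 of 16 markers lower in the BMPC and 2 higher (median -1.68). With median-of-ratios scaling 8 were lower and 2 higher, and on the main scale 6 were lower without spleen replicate 1 or 2. Trac, a T cell receptor constant gene, was at 2.6, 9.46 and 1.51 TPM in the BMPC and 158, 74.6 and 13.5 TPM in B220+2NBDG-, where replicate 1 was the highest and replicate 3 near the BMPC. Cd4 was 1 of the T cell markers that rose, at 9.7, 7.06 and 22.6 TPM against 0.723, 1.66 and 2.29 TPM. Erythroid genes followed single libraries, with a sum of 110.0, 99.5 and 2116 TPM in B220+2NBDG- and 608, 1077 and 334 TPM in the BMPC.

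**Figure D5:**
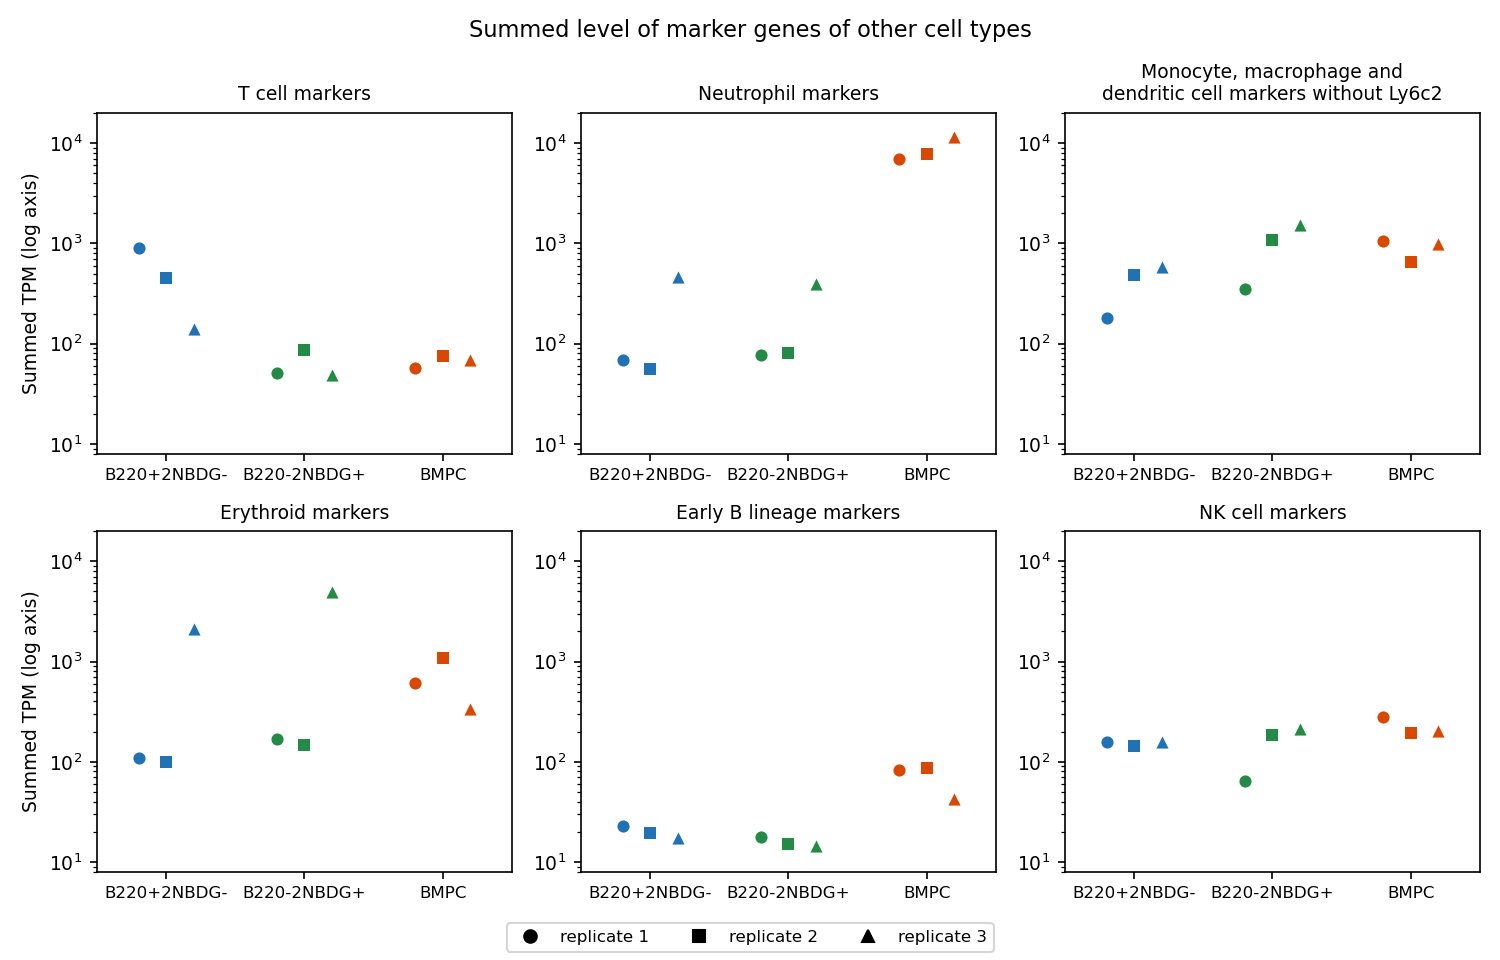
Summed TPM (log axis) of marker genes of 6 other cell types in each library of B220+2NBDG-, B220-2NBDG+ and BMPC, with the symbol giving the replicate. Neutrophil and early B lineage sums are highest in the BMPC, T cell sums in B220+2NBDG- replicate 1 at 911 TPM, and erythroid sums in replicate 3 of both spleen groups.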

How the data were processed

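RNA of 15 sorted plasma cell libraries, 3 in each of 5 groups, was extracted with a NucleoSpin XS kit and made into libraries with Clontech Smartseq and Nextera kits, per the labels' protocols. The deposited values are TPM per transcript (63553 transcripts), made by the authors with Salmon 0.9.1 on GRCm38.p6, per the submitters' processing notes. Annotation release and read filters were not given in the sources used here. TPM were summed over 22339 genes, 262 immunoglobulin genes (biotypes of GENCODE M21, which held 99.7% of the transcripts) were set aside, and the rest was rescaled to 1000000 per library, a factor of 11.2 to 27.3 in the 6 libraries compared, so that a gene's error at a given TPM grows with the immunoglobulin share. Reads were estimated from TPM times effective length, where 72.2% to 74.8% of low values came out whole (within 0.05), and depth is therefore approximate.

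Genes with at least 1 TPM in 3 libraries (11246) were fitted as log2(TPM + 1) with limma 3.58.1 (R 4.3.3) over all 5 groups, which share 1 estimate of spread, with an intensity trend and Benjamini-Hochberg adjustment over all tested genes. Fold changes on this scale understate those of low genes. Shares were compared by two-sided exact permutation tests (scipy 1.17.1). Data were simulated with normal noise for the comparison of BMPC with B220+2NBDG- on 11246 genes. The changed genes were drawn only from those with a mean above about 10 TPM, so recovery of lower genes was not tested. Of these, 45 of 50 genes raised by 2 on the log2 scale, 48 of 50 lowered by 2, 28 of 50 raised by 1 and 36 of 50 lowered by 1 were called. Median-of-ratios scaling, pseudocounts, filters, deposited TPM, other samples in the fit and left-out replicates were tried as alternatives.

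The 29 pathway and 10 marker lists, and the comparison itself, were chosen with earlier results of these data known. Genes were named by a rule: the 12 called genes with the largest rise and the 12 with the largest fall, given a mean of 10 TPM or more in 1 group and no overlap, up to 5 called members of each list in each direction, the 3 most expressed members of each marker list, and a fixed set of sort markers, regulators and receptors. Anln, E2f1, Lgmn, H2-Ab1, Slpi, Dntt, Cd4, Cd79a, Cd74, Top2a, Ncapg, Mcm5 and Dtl were added after their values were seen. So were Ctsg, Ighd, Cd68, C1qb, Vcam1, Hmox1, Prss34, Prg3 and Il7r. Promoters came from RefSeq (GRCm38.p6).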

Additional observations from a re-analysis of the deposited data

How the results depend on the processing

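In the full comparison the counts of higher and lower genes were 58 and 4002 for deposited TPM with immunoglobulin genes kept, 1165 and 843 with median-of-ratios scaling and 308 and 846 with only the 2 groups in the fit, and 1364 genes were lower with Jchain and Slpi also set aside, an alternative chosen after seeing the data. Leaving out single libraries gave 400.0 to 542 higher and 1425 to 2764 lower genes. Between tissues the counts were 31 and 1 for deposited TPM, 194 and 37 with median-of-ratios scaling and 44 and 9 with 2 groups, 59 genes were lower without a filter, 71 were higher with at least 5 TPM required, and leaving out single libraries gave 67 to 115 higher and 21 to 182 lower. Within the spleen they were 28 and 4044, 841 higher, and 257 and 531 under the same 3 settings, and 311 to 641 higher and 719 to 1534 lower without single libraries. For deposited TPM 23 S phase genes, 34 mitosis genes and 26 plasma cell identity genes were lower, and 4 of the last list were higher. Of that list 5 were higher without a filter, 5 higher and 5 lower with 2 groups, 3 lower with median-of-ratios scaling, and 5 to 9 higher without single libraries.

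Single genes turned direction as follows (log2 fold change). For deposited TPM these were Cd28 (-0.23), Cd79a (-0.82), Cox6a2 (-0.00), Ctss (-0.13), Pttg1 (-0.24), Nfkbia (-0.17), Sdc1 (-0.21), Tnfrsf13b (-0.16) and mt-Cytb (-0.36). Xbp1 stood at 0.35 with median-of-ratios scaling, 0.00 with mitochondrially encoded genes set aside and 0.14 with Jchain and Slpi set aside, and Irf4 at 0.12 with median-of-ratios scaling. Without single libraries the values ran from -0.22 to 0.32 for Xbp1, from -0.48 to 0.13 for Irf4, from -0.06 to 0.17 for Cd79a, from -0.14 to 0.68 for Slc2a3 and from -0.13 to 0.26 for Bcl2. The difference in the Ighg2c share lay between -2.24 and 1.02 points without single libraries (-0.46 with all). The cause was not tested for any of these, and TPM without read counts limits what can be said of low genes.

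No sign of pairing by replicate number was seen between the BMPC and the B220+2NBDG- libraries. Deviations of same-numbered libraries correlated at -0.058, -0.065 and 0.035, and those of differently numbered libraries at -0.0301 to 0.0997. With 3 libraries per group, such values cannot exclude shared animals or sorts. Pairing among the spleen fractions was not tested. Their erythroid sums were highest in replicate 3 of every fraction. These were 2116 (B220+2NBDG-), 3472 (B220-2NBDG-), 6804 (B220+2NBDG+) and 4934 TPM (B220-2NBDG+), against 99.5 to 443 TPM in replicates 1 and 2. With the replicate block 627 genes were higher and 2453 lower in the full comparison and 163 lower between tissues. Within the spleen 604 were higher and 1287 lower with the block.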

Other observations

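Immediate early and NF-kB genes fell more often than they rose, as did all tested genes on the main scale. Of 37 tested genes 10 fell and 2 rose (median log2 fold change -0.37). Over all tested genes 21.5% fell and 5.0% rose, with a median of -0.32. With median-of-ratios scaling 8 fell and 3 rose, where 7.52% and 10.4% of all tested genes did. Egr2, a transcription factor induced by antigen receptor signals, was at 0.132, 1.12 and 3.28 TPM in the BMPC and 24.4, 28.5 and 17.4 TPM in B220+2NBDG- (log2 fold change -3.46, limma adjusted p = 0.0003), with the BMPC libraries spread widely below the spleen. Cd83, an activation marker of B cells, was at 7.66, 10.6 and 9.79 TPM against 57.9, 85.7 and 24.5 TPM, and Dusp2, a phosphatase of activated lymphocytes, at 1.17, 1.22 and 1.01 TPM against 5.45, 7.21 and 8.68 TPM. The members that rose were Nfkbia, the gene of the inhibitor IkB-alpha, at 138, 136 and 149 TPM against 80.3, 56.8 and 136 TPM, and Ier3 at 5.8, 6.22 and 4.91 TPM against 1.45, 1.79 and 3.2 TPM. The call of Nfkbia (limma adjusted p = 0.034) was lost without spleen replicate 1 or 2 (limma adjusted p = 0.0863 and 0.121), without BMPC replicate 1, 2 or 3 (0.0739, 0.0694 and 0.0769), with only the 2 groups in the fit (0.156) and with no filter (0.0627).

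Of 23 tested immune regulatory genes 8 fell and 1 rose (median -0.35), or 3 and 4 with median-of-ratios scaling. Pdcd1, which encodes the checkpoint receptor PD-1, was at 0.825, 1.28 and 1.34 TPM against 17.9, 7.98 and 15 TPM, and Nt5e, the ectonucleotidase CD73, at 0.342, 0.765 and 0.924 TPM against 15.4, 8.15 and 3.57 TPM (limma adjusted p = 0.0013 and 0.0012). T cells express both, and the part of T cell RNA was not tested. Pdcd1lg2, a PD-1 ligand gene, was the member that rose, at 11.5, 7.69 and 13.1 TPM against 6.77, 5.6 and 4.9 TPM (limma adjusted p = 0.015). It did not pass without BMPC replicate 1 or 3 (limma adjusted p = 0.0521 and 0.0539) or with only the 2 groups in the fit (0.103), and under the last 2 of these settings no member rose. Among 39 interferon-stimulated genes 3 rose and 7 fell (median -0.23), or 4 and 3 with median-of-ratios scaling, and 4 fell without BMPC replicate 1 or 2. Bst2, the virus-tethering protein tetherin, was at 201, 166 and 168 TPM against 91.8, 61.9 and 109 TPM, and Tap1, a peptide transporter of class I presentation, at 15.2, 26.3 and 33.9 TPM against 59, 56.6 and 104 TPM.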
